A study of Mus musculus with 2 samples.

Results

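The Mir17-92 and Mir106b-25 clusters are a pair of microRNA clusters whose hairpins are cut from shared primary transcripts. The 9 genes described here are all those that GENCODE M21 names Mir17, Mir18, Mir19a, Mir20a, Mir19b-1 and Mir92-1, on chromosome 14, or Mir106b, Mir93 and Mir25, on chromosome 5. They were taken by symbol from the 2202 microRNA genes of both count tables, and the rule for taking them used no measured value. The RNA came from hippocampus of female mice of strain B6CASTF1/J, the offspring of C57BL/6J and CAST/EiJ parents, at 14 days of age. There was 1 group of 2 biological replicates without a treatment or mutant, each a pool labelled with 3 females and sequenced as 1 library, so variation among animals and among libraries cannot be told apart. The tissue label speaks of a layer of the hippocampus and does not say which.

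A microRNA guides the Argonaute complex to messenger RNAs mainly through its seed, bases 2 to 8, and microRNAs with the same seed share many targets. Mir17-92 is induced by Myc and E2F factors, is amplified in lymphomas, and promotes proliferation and survival, in part by lowering the cell death protein Bim. In brain it is known for keeping neural progenitors dividing. Mir106b-25 lies within Mcm7, which encodes a subunit of the replicative helicase, and its products lower the cell cycle inhibitor Cdkn1a and Bim.

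The mature sequences are shown because the 9 genes carry only 4 seeds, and because the bases outside the seed decide whether a read can be assigned to a single gene. They are from RefSeq on GRCm38.p6, which listed all 9 genes, and are written 5′ to 3′ with the seed in capitals. The mir-17 seed was carried by 4 members and, in the paralogous cluster on chromosome X, by Mir106a and Mir20b.
miR-17-5p of Mir17: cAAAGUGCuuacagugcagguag
miR-20a-5p of Mir20a: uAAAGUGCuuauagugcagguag
miR-106b-5p of Mir106b: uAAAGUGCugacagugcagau
miR-93-5p of Mir93: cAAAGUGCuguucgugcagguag
miR-106a-5p of Mir106a: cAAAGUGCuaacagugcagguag
miR-20b-5p of Mir20b: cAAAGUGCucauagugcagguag

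The mir-18 seed differs from the mir-17 seed in the middle, and the mir-19 and mir-25/92 seeds are unlike both.
miR-18a-5p of Mir18: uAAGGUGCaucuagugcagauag
miR-18b-5p of Mir18b: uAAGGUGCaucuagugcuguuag
miR-19a-3p of Mir19a: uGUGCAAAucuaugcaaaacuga
miR-19b-3p of Mir19b-1 and Mir19b-2: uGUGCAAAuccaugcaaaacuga
miR-92a-3p of Mir92-1 and Mir92-2: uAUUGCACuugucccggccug
miR-25-3p of Mir25: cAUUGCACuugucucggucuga
miR-92b-3p of Mir92b: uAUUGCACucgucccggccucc

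Counted from 1 at the 5′ end, miR-17-5p and miR-106a-5p differ by U10A and otherwise have the same 22 bases. The 2 mir-19 products differ by U11C. Within the shared 21 bases, miR-92a-3p differs from miR-92b-3p by U10C and G21C, and from miR-25-3p by U1C, C14U and C18U. Of the 9 members, 7 have a mature sequence found in no other microRNA gene of the annotation. The other two, Mir19b-1 and Mir92-1, have the same mature sequence as Mir19b-2 and Mir92-2. RefSeq lists products of both hairpin arms for 8 of the 9, and a count here is for the whole hairpin gene, so the arms are not separated.

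In GRCm38 the Mir17-92 hairpins lie on the plus strand in exon 2 of the long noncoding RNA Mir17hg, within 836 bases. Mir17 (ENSMUSG00000065508.1) spans chr14:115043671-115043754, and Mir92-1 (ENSMUSG00000076062.1) ends the cluster at chr14:115044427-115044506. The gaps between hairpins run from 35 to 96 bases. The Mir106b-25 hairpins lie on the minus strand in intron 13 of the Mcm7-201 transcript, within 498 bases, in the order Mir106b, Mir93, Mir25. Mir93 (ENSMUSG00000065527.1) spans chr5:138165523-138165610, Mir106b (ENSMUSG00000065514.1) chr5:138165737-138165818 and Mir25 (ENSMUSG00000065394.1) chr5:138165321-138165404.

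Sense counts over all microRNA genes came to 4764797 in replicate 1 and 2852269 in replicate 2. Levels are CPM, counts scaled to these totals. A read is a whole small RNA, so levels were not divided by gene length. A count of 0 allowed up to 0.630 CPM in replicate 1 and 1.05 CPM in replicate 2, taking 3 counts as the limit. Reads that matched several places, 40.8% and 37.1% of all reads, stood on a line of their own. Genes and summary lines added up to 13195465 in each of the 3 columns of replicate 1 and to 7838361 in each of replicate 2, so each read was entered a single time per column. All intervals and limits are for counting error only, since amplified reads without molecular identifiers are not independent molecules. Neuronal marker microRNAs were present, with 7 of 10 genes detected, but the 3 copies of Mir124a, which share a mature sequence, had at most 18 counts in a library.

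Of the 9 genes, 7 were detected, meaning at least 10 counts in both libraries, against 409 of all 2202. Together the 9 held 0.991% of the counts in replicate 1 and 0.989% in replicate 2, a mean of 0.990% ± 0.00157 (SD, n = 2). The 6 genes of Mir17-92 summed to 4427 CPM in replicate 1 and 4972 CPM in replicate 2, a mean of 4699 ± 385 (SD, n = 2). The 3 genes of Mir106b-25 summed to 5487 and 4919.9 CPM, a mean of 5203 ± 401 (SD, n = 2). The ranges of these sums overlap, and their order changed between the pools. Both are sums of assigned reads, without multi-mapping reads. In replicate 1 the Mir106b-25 sum was 1.24 times the Mir17-92 sum, with an exact 95% interval of 1.22 to 1.26. In replicate 2 it was 0.990 times, with an interval of 0.967 to 1.01.

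**Figure D1:**
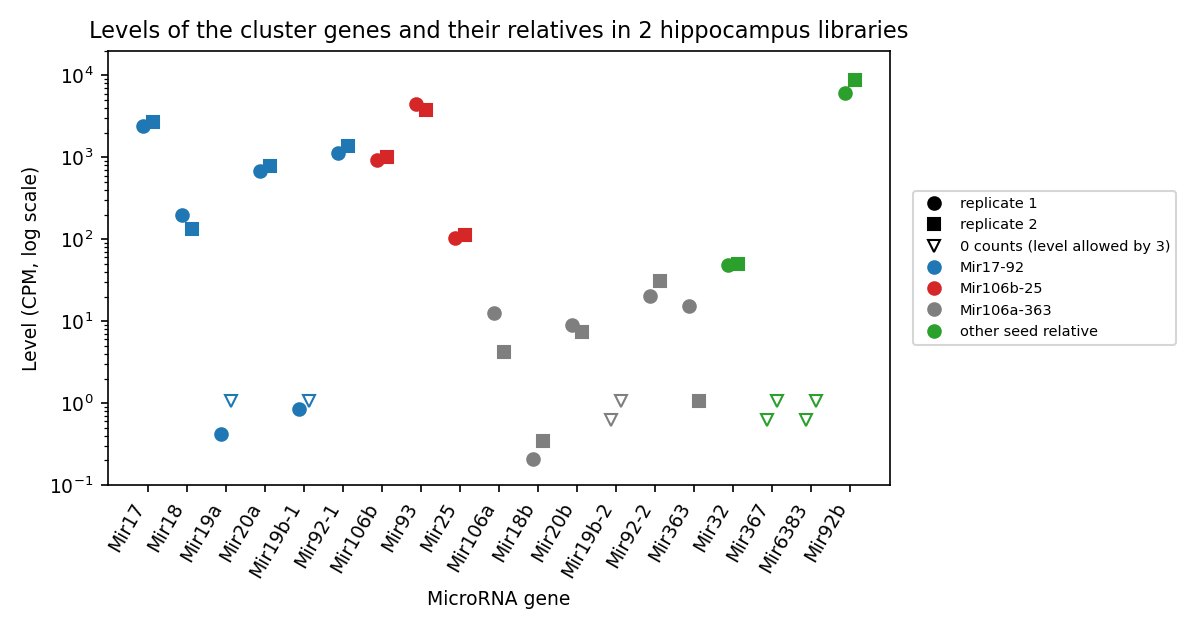
Level of each gene in CPM (log axis) in replicate 1 (circles) and replicate 2 (squares), coloured by cluster, with open triangles at the level that a count of 0 allows. Mir93 and Mir17 lead the 9 members in both libraries, and Mir19a and Mir19b-1 lie at or under 0.839 CPM where they were counted at all. Each single gene of the chromosome X cluster stays under 31 CPM.

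The 4 members with the mir-17 seed, the seed under which cell cycle inhibitors such as Cdkn1a are targeted, held most of the counts of both clusters. They summed to 8479 CPM in replicate 1 and 8263 in replicate 2. Mir93 stood at 4463 CPM in replicate 1 and 3809.95 in replicate 2, a mean of 4136 ± 462 (SD, n = 2), at rank 47 of all genes. It was the highest of the 9 in both libraries. Mir17, which gives its cluster its name, stood at 2413 and 2674 CPM (2543 ± 185), at rank 62. Mir106b stood at 921 and 997 CPM (959 ± 54.4), and Mir20a, a close copy of Mir17, at 683 and 781 CPM (732 ± 69.8). The values of these 4 genes do not overlap with each other, so Mir93, Mir17, Mir106b and Mir20a kept this order in both.

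Mir18 is the only member with the mir-18 seed. It stood at 197 CPM in replicate 1 and 134 in replicate 2, a mean of 165 ± 44.7 (SD, n = 2), at rank 190. With the mir-25/92 seed, Mir92-1, whose product is best known from endothelial cells, where it restrains vessel growth, stood at 1134 and 1383 CPM (1258 ± 176). Mir25, which shares the seed and lies in the other cluster, stood at 103.5 and 113 CPM (108 ± 6.42). Mir92-1 exceeded Mir25 by 11.0 times (9.99 to 12.0) in replicate 1 and 12.3 times (11.0 to 13.8) in replicate 2, by exact 95% counting intervals. These ratios are of assigned reads only.

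Both members with the mir-19 seed were below detection. Mir19a (ENSMUSG00000065416.1, chr14:115044000-115044081) had 2 counts in replicate 1 and 0 in replicate 2. Mir19b-1 (ENSMUSG00000076256.1, chr14:115044305-115044391) had 4 and 0. In replicate 1 these are levels of 0.420 CPM (exact 95% interval 0.0508 to 1.52) and 0.839 CPM (0.229 to 2.15), and the count of 0 in replicate 2 allows up to 1.05 CPM. No ratio between the pools is given for them. Their immediate neighbours Mir18, Mir20a and Mir92-1 had from 381 to 5401 counts in the same libraries, so the gap lies between adjacent hairpins of a single transcript. The mature sequence of Mir19b-1 is also that of Mir19b-2, whereas that of Mir19a is found in no other microRNA gene. Between sense sequences, the longest run that the Mir19a hairpin shares with another microRNA gene elsewhere is 13 bases. The part of read assignment in these low counts was not tested.

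**Figure D2:**
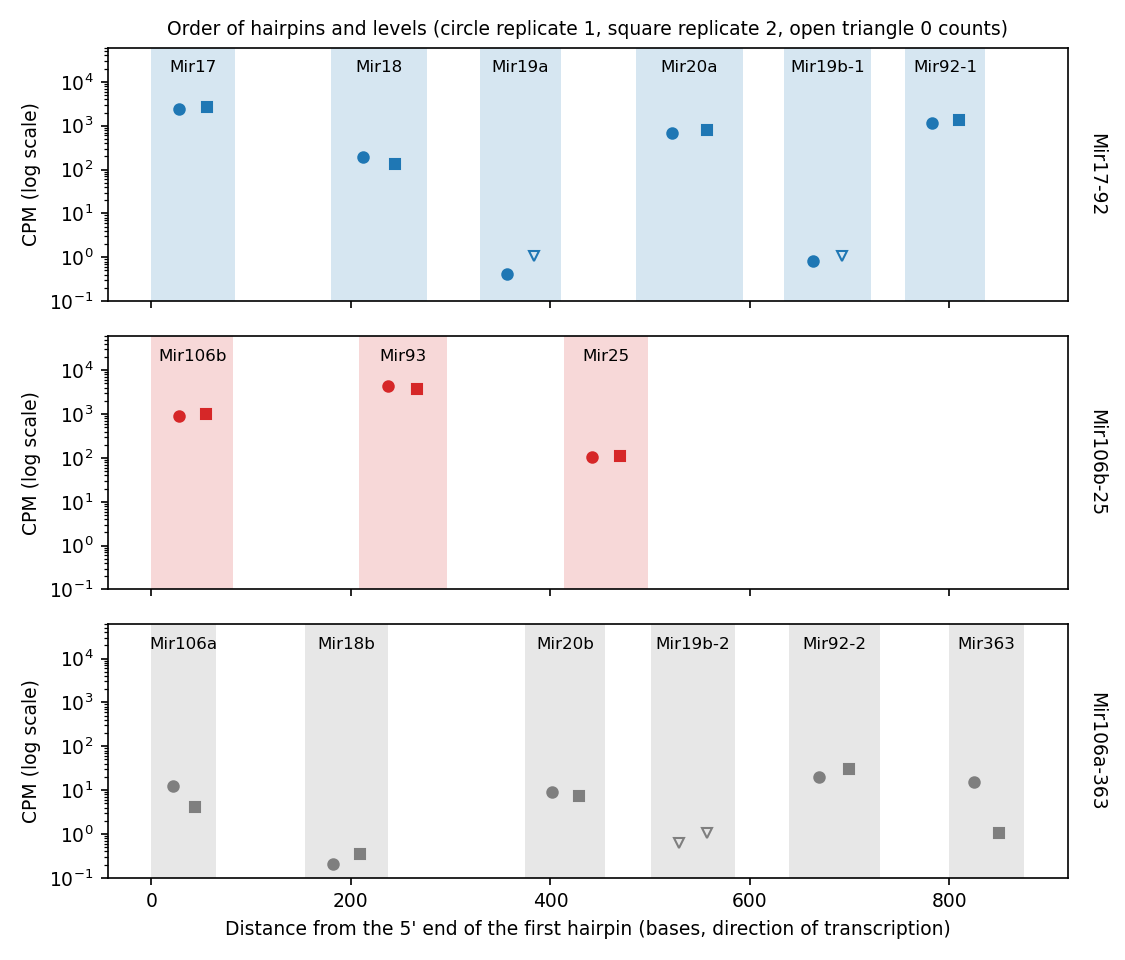
Each hairpin is a shaded box placed by its distance in bases from the start of the first hairpin of its cluster, and points give its level in CPM (log axis) in replicate 1 (circle) and replicate 2 (square), with open triangles for 0 counts. Level does not follow position: in Mir17-92 the well counted members alternate with Mir19a and Mir19b-1, and in Mir106b-25 the middle hairpin, Mir93, is the highest.

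Ordered by mean level, the 9 members ran Mir93, Mir17, Mir92-1, Mir106b, Mir20a, Mir18, Mir25, Mir19b-1 and Mir19a. Reads matching both Mir92-1 and Mir92-2, or both Mir19b-1 and Mir19b-2, are not in this order. In 7 of the 8 neighbouring pairs the lower library of the higher gene exceeded the higher library of the lower gene. The closest of these in CPM was Mir18 over Mir25, at no less than 134 against no more than 113 CPM. The closest in proportion was Mir92-1 over Mir106b, at no less than 1134 against no more than 997 CPM. The remaining pair, Mir19b-1 and Mir19a, overlapped at or near 0. Pairs of members were not tested, because 2 libraries a gene are too few for an exact permutation test to reach 0.05.

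Within Mir17-92 the split of the counts was much the same in both pools for the main members. Mir17 held 54.5% of the cluster in replicate 1, with an exact 95% interval of 53.8 to 55.2, and 53.8% in the other library (53.0 to 54.6), and these intervals overlap. Mir20a held 15.4% (14.9 to 15.9) and 15.7% (15.1 to 16.3), which overlap as well. Mir92-1 held 25.6% (25.02 to 26.2) and 27.8% (27.1 to 28.6), which do not. Of the detected members Mir18 moved most in proportion, from 4.45% (4.17 to 4.73) to 2.69% (2.43 to 2.97). In replicate 1 Mir17 had 12.3 times the counts of Mir18 (11.5 to 13.1), against 20.0 times (18.1 to 22.2) in the other pool. The ratio of Mir17 to Mir20a stayed at 3.53 (3.40 to 3.68) and 3.42 (3.26 to 3.59). These shares compare genes inside a library and do not depend on how the libraries were scaled. They are shares of assigned reads, and how many multi-mapping reads belong to Mir92-1 and Mir19b-1 is not analysed here.

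Within Mir106b-25, Mir93 held 81.3% (80.9 to 81.8) of the counts in replicate 1 and 77.4% (76.7 to 78.1) in replicate 2. Mir106b held 16.8% (16.3 to 17.2) and 20.3% (19.6 to 20.9). Mir25 held 1.89% (1.72 to 2.06) and 2.29% (2.05 to 2.55), the smallest share of the cluster in both. Mir93 had 43.1 times the counts of Mir25 (39.4 to 47.3) in the first pool and 33.9 times (30.3 to 37.9) in the other. By contrast, Mir106b exceeded Mir25 by 8.90 times (8.10 to 9.78) and 8.86 times (7.89 to 9.98), and these intervals nearly coincide. The mature sequence of Mir25 is found in no other microRNA gene. Between sense sequences, its hairpin shares at most 14 bases in a row with a microRNA gene elsewhere.

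**Figure D3:**
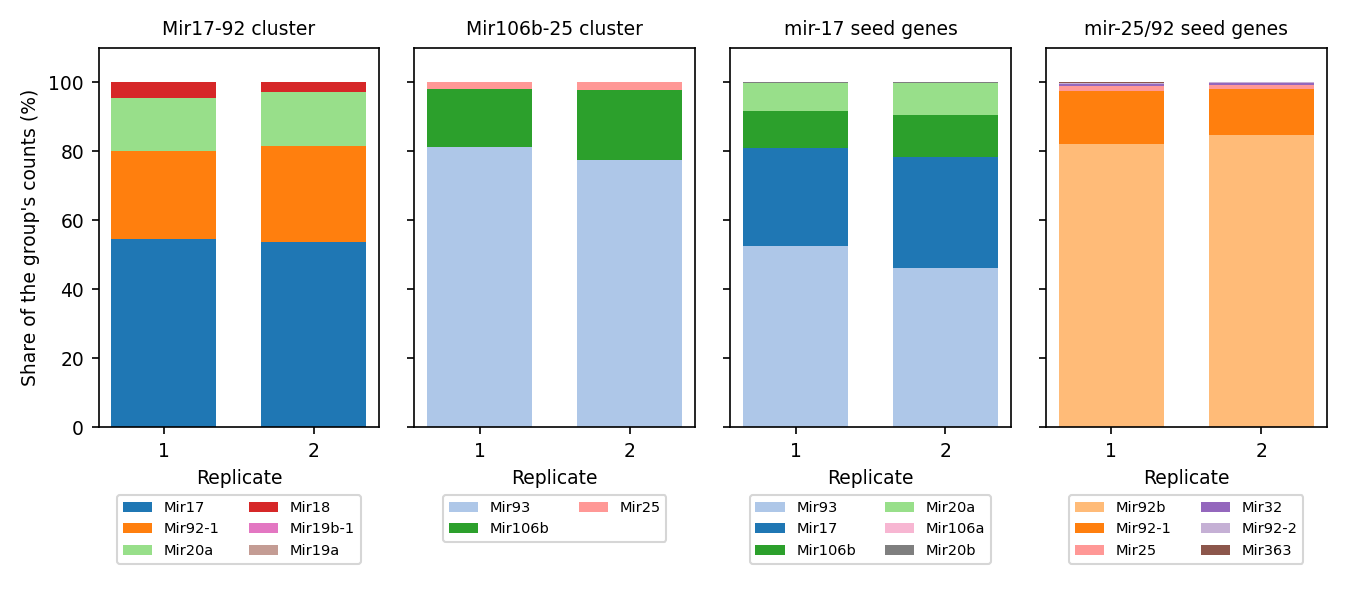
Stacked bars give each gene's share in percent of the counts of its group, in replicate 1 and replicate 2, for the Mir17-92 cluster, the Mir106b-25 cluster, and all genes with the mir-17 seed or the mir-25/92 seed. In assigned reads, Mir17 holds over 53% of its cluster and Mir93 over 77% of its own in both libraries. Mir92b, which belongs to neither cluster, holds over 82% of the mir-25/92 seed genes. Multi-mapping reads that belong to Mir92-1 or Mir19b-1 are not in these shares.

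Mir92-1 and Mir19b-1 are the 2 members that share 20 or more bases in a row with a microRNA gene elsewhere. Their hairpins and those of their chromosome X copies, from GENCODE M21 and written 5′ to 3′, show that the copies share the mature stretch and otherwise only shorter runs, with the longest shared run in capitals.
Mir92-1: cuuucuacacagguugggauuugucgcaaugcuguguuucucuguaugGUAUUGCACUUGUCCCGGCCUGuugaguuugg
Mir92-2: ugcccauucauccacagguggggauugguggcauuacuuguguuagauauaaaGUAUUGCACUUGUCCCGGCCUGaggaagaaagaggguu
Mir19b-1: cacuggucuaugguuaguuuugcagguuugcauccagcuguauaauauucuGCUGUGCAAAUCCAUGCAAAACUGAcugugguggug
Mir19b-2: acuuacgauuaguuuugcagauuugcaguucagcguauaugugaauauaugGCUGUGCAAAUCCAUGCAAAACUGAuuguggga

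The run shared by Mir92-1 and Mir92-2 is 22 bases and ends at the last base of miR-92a-3p, after beginning 1 base before it. That shared by Mir19b-1 and Mir19b-2 is 25 bases, beginning 2 bases before miR-19b-3p and ending with it. A read of the listed mature sequence therefore matches both copies, and a read that carries the next base of its hairpin at the 3′ end matches 1 copy of the pair. Counts assigned to Mir92-1 exceeded those assigned to Mir92-2 by 55.7 times in replicate 1, with an exact 95% interval of 45.6 to 68.8, and by 44.8 times (36.3 to 56.0) in the other library. Neither copy of Mir19b had more than 4 counts in a library. The levels of Mir92-1 and Mir19b-1 are thus those of assigned reads only, and how many multi-mapping reads belong to them is not analysed here.

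The paralogous cluster on chromosome X, Mir106a-363, was low beside the 2 clusters. Its 6 genes summed to 57.7 CPM in replicate 1 and 43.8 CPM in replicate 2, with exact 95% intervals of 51.1 to 64.95 and 36.5 to 52.2, and 3 of them were detected. Mir17 exceeded Mir106a, which differs from it by 1 base of the mature sequence, by 192 times (149 to 251) in replicate 1 and 636 times (364 to 1230.4) in replicate 2. Mir20a exceeded Mir20b by 75.7 times (56.0 to 105) and 106.1 times (69.3 to 172). Mir92-2 stood at 20.4 and 30.9 CPM, Mir18b had 1 count in each library, and Mir19b-2 had 0 in both.

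Outside all 3 clusters, 4 further genes carry a seed of the members. Mir92b, at chr3:89227116-89227198, was the highest gene of any of these seeds at 6102 CPM in replicate 1 and 8836 in replicate 2 (7469 ± 1934, SD, n = 2), at rank 27. Its assigned counts exceeded those of Mir92-1 by 5.38 times (5.23 to 5.54) and 6.39 times (6.18 to 6.61). Reads that match both Mir92-1 and Mir92-2 are left out of this ratio. Mir32 stood at 48.1 and 49.4 CPM, and Mir367 and Mir6383 had 0 counts in both libraries. Among genes with the mir-25/92 seed, members therefore held a minor share of the assigned reads, with Mir92-1 at 15.3% (14.9 to 15.6) and 13.3% (12.9 to 13.7), and Mir25 at 1.39% (1.27 to 1.52) and 1.08% (0.966 to 1.20). Among genes with the mir-17 seed the 4 members held nearly all, since Mir106a had 0.148% (0.113 to 0.191) and 0.0508% (0.0263 to 0.0888) and Mir20b 0.106% (0.0768 to 0.143) and 0.0890% (0.0551 to 0.136).

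The pools were then compared gene by gene, with library sizes scaled by TMM and an exact binomial test adjusted by Benjamini-Hochberg over the 450 genes with at least 20 counts in sum. This test sets 2 libraries side by side and not 2 conditions. In bulk tissue, fewer cells of a type and less of a microRNA per cell cannot be told apart. Of the 7 members tested, 5 were higher and 2 lower in replicate 2, where 32.9% of all tested genes were higher, 32% lower and 64.9% either. Mir19a and Mir19b-1 had too few counts to be tested. Passing the test says little about a well counted gene: of the 208 genes with at least the 814 counts of the lowest tested member, 91.3% passed.

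The shifts of the members lay between the quartiles of all tested genes, -0.46 and 0.54 on the log2 scale. The log2 ratios of the members, replicate 2 to replicate 1, ran from -0.44 to 0.41. Their median was 0.24, beside a median of 0.01 over all 450 genes. None of the 7 passed 2-fold, a size reached by 22% of all tested genes and by 16.3% of the 208 genes counted at least as often. Among only 7 genes, none past 2-fold is near these shares and is not a result about the members. The median size of the log2 ratio was 0.27 in the members and 0.41 in those 208 genes. Mir18 at -0.44 and Mir92-1 at 0.41 were about as large as the latter.

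In Mir17-92, Mir92-1 gave a log2 ratio of 0.41 (95% counting interval 0.35 to 0.47), Mir20a 0.32 (0.24 to 0.40) and Mir17 0.27 (0.23 to 0.31). Mir18 went the other way at -0.44 (-0.61 to -0.26), with an adjusted p of 9.54e-07 by the exact binomial test. In Mir106b-25, Mir106b gave 0.24 (0.17 to 0.31) and Mir93 -0.11 (-0.14 to -0.07). Each cluster thus held a member that was higher and a member that was lower in replicate 2. Mir25 gave 0.24 (0.04 to 0.45) with an adjusted p of 0.0306 by the exact binomial test, and this call was lost with DESeq2 size factors (adjusted p = 0.142) and with total counts as library sizes (adjusted p = 0.315). Total counts lowered the median of all tested genes by 0.12 on the log2 scale. Mir17 then gave 0.15, Mir20a 0.19, Mir106b 0.12 and Mir93 -0.23, each in the same direction as before and past the test.

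**Figure D4:**
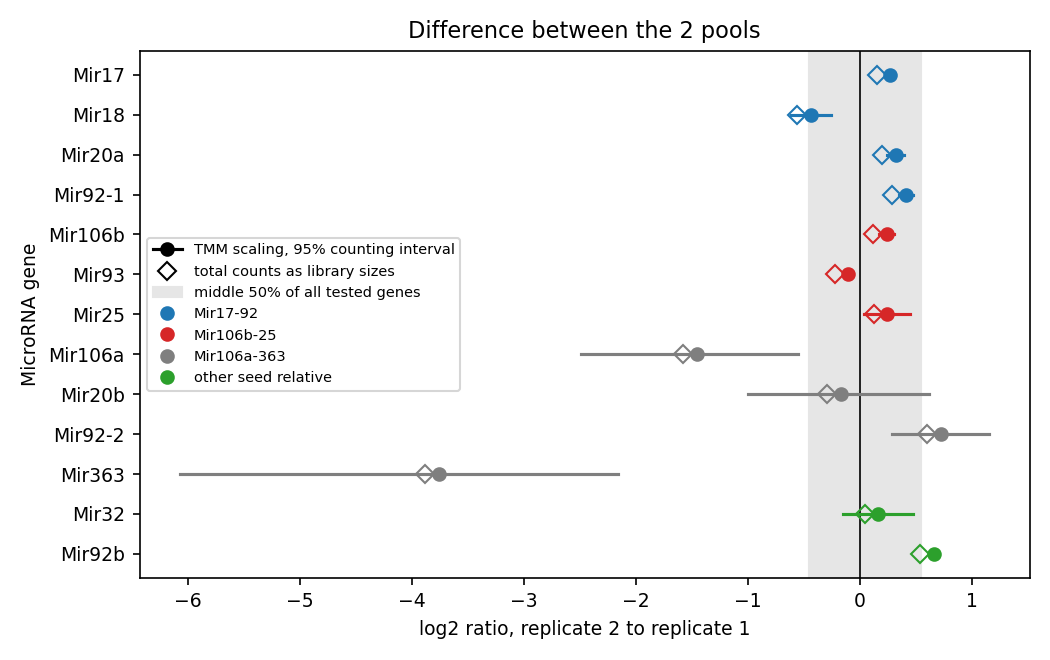
Log2 ratio of replicate 2 to replicate 1 for the 7 tested members and 6 tested relatives, with TMM scaling (filled circles, bars for 95% counting intervals) and with total counts as library sizes (open diamonds), over a grey band for the middle 50% of all tested genes. All 7 members lie within the band, from -0.46 to 0.54, under TMM scaling, and Mir106a, Mir363, Mir92-2 and Mir92b lie outside it.

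Of the 10 relatives 6 could be tested, and 2 were higher, 2 lower and 2 not past the test, with a median log2 ratio of 0.00. Mir92b gave 0.66 (0.63 to 0.68) and Mir92-2 0.72 (0.29 to 1.15), the same direction as Mir92-1. Mir106a, with 60 and 12 counts, gave -1.46 (-2.49 to -0.55). Mir363, with 74 and 3 counts, gave -3.76 (-6.07 to -2.16), so its level in replicate 2 rests on 3 counts. Mir20b at -0.17 (-0.998 to 0.61) and Mir32 at 0.16 (-0.15 to 0.47) did not pass.

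Summed levels of marker lists for cell types, both of the hippocampus and of other tissues, also differed between the pools. Not all of their genes went the same way. Directions in CPM are not tests. CPM uses total counts, which lowered the median of all tested genes by 0.12 on the log2 scale against TMM. By the exact binomial test 32.9% of all tested genes were higher in replicate 2 and 32% lower. The 7 choroid plexus and ciliated cell genes, of which 4 were detected and Mir449b was at 0, summed to 3951 CPM in replicate 1 and 1189 in replicate 2, and 6 were lower in CPM in replicate 2. Of these 6, Mir211 did not pass the test and Mir449c had too few counts to be tested. The 10 genes of other epithelia, 8 of them detected, summed to 173 and 543 CPM, with 8 higher and 2 lower in CPM. Among them Mir205 did not pass the test and Mir96 had too few counts to be tested. The 5 microglial and immune genes, all detected, summed to 1819 and 1519 CPM, and all 5 were lower in CPM. Mir150, Mir155 and Mir146 were called lower by the test, and Mir223 and Mir142 did not pass.

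Sums of the remaining lists rested on some of their genes. The 3 red blood cell genes, all detected, summed to 290.0 and 722 CPM through Mir451a at 217 and 663 CPM, while Mir144 stood at 47.2 and 37.5 CPM and Mir486 at 25.4 and 20.7. Neither Mir144 nor Mir486 passed the exact binomial test. The 2 oligodendrocyte genes, both detected, summed to 1911 and 3173 CPM through Mir219a-2 at 1247 and 2583 CPM, while Mir338 stood at 664 and 590.1 and did not pass the test. The 10 neuronal genes summed to 15583 and 22339 CPM, with 5 higher and 5 lower in CPM in replicate 2. Among them Mir9-1 and Mir9-3 did not pass the test, and Mir124a-2, Mir124a-3 and Mir9-2 had too few counts to be tested. Mir138-1 stood at 2760.2 and 7155 CPM, Mir138-2 at 1509.8 and 3481, and Mir132 at 4678 and 7461, whereas Mir137 stood at 6526 and 4153. Apart from Mir449b, no gene of the 6 lists was at 0 in both libraries. The part of these cells in the differences of the cluster members was not tested.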

How the data were processed

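Per the labels, small RNA under 30 in size was made into microRNA libraries. The deposited tables hold raw counts per microRNA gene, made by the authors on mm10 with GENCODE M21 per the accompanying text. The aligner and the counter were not given in the sources used here. Of the 3 count columns, that of the strand with most reads was used, and the summary lines of each table (such as multi-mapping reads) were left out of totals. All 9 members had 0 counts on the other strand. CPM, means, SDs and exact Clopper-Pearson 95% intervals were computed here (Python 3.11.15, scipy 1.17.1). Log2 ratios used TMM sizes (edgeR 4.0.16, R 4.3.3) over genes with at least 20 counts in sum, and exact binomial tests with Benjamini-Hochberg adjustment at 0.05. With 1 library a pool, edgeR's quasi-likelihood test had no residual degrees of freedom. Scaling and test were tried on counts simulated with counting error only, so the trial says nothing about variation among animals or libraries. Shared runs of at least 20 bases were sought on both strands of M21 hairpins. The lengths of the longest shared runs were measured between sense sequences only. Named genes were the members, the Mir106a-363 genes and every gene with a member's seed. The clusters were proposed, and lists and tests chosen, with earlier results of these data known, although the rule that takes the members uses gene symbols only. DESeq2 1.42.0 size factors and other settings were tried.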

Additional observations from a re-analysis of the deposited data

How the results depend on the processing

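The summed levels moved by more than 1 SD with the denominator. Scaled to all reads instead of assigned reads, Mir17-92 came to 1704 and Mir106b-25 to 1886, and without the most abundant gene in the total they came to 5239 and 5812 CPM. The unstranded column changed only the total and moved both sums by less than 1 SD. It could not move their ratio or any share, because all 9 members had equal counts in both columns. Leaving out a replicate gives the value of the other library, which with 2 libraries always lies within 1 SD of the mean and says nothing about stability. The count of 7 detected members held at minimums of 5, 20 and 100 counts. The counts of 5 higher and 2 lower members stayed within 1.5 times under every scaling and filter tried, and no tested member changed direction. Mir25 was also not called with no filter on low counts (log2 ratio 0.17, adjusted p = 0.221 by the exact binomial test). Mir92-1 gave no ratio once genes sharing bases were left out, and leaving out a replicate left no ratio to compute. No paired analysis was possible because the series has 1 group.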
